A study of Gossypium with 24 samples.

Results

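A group of 83 genes was low in waterlogged roots of 2 cotton varieties after 96 h in darkness, and stood close to its control level in both varieties 24 h after drainage and re-lighting. The 83 genes were selected on these values from the 60633 gene IDs in the count table. For each gene, counts were expressed as CPM, that is per 1e6 counts of the library total, and averaged over the 3 libraries of a group, and the log2 ratio of waterlogged over control roots was taken after adding 0.5 CPM to both. A gene was kept when this ratio was -3 or lower at 0 h, within 0.5 of 0 at 24 h, and accompanied by at least 5 CPM in waterlogged roots at 24 h, each in both varieties. A ratio of -3 is an 8-fold difference on this scale. The selection depends on scaling by library totals, since 13 of the 83 genes met the same limits with TMM scaling. That count reflects all the limits together and not the 24 h ratio alone. With TMM scaling, 68 of the 83 genes in 9001 and 32 in 4847 stayed within 0.5 of 0 at 24 h. These values are described further on.

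Roots of cotton (Gossypium) seedlings at the 4-leaf stage were sequenced in 24 libraries, 3 in each of 8 groups. The submitters call variety 9001 waterlogging tolerant and variety 4847 flood sensitive. Waterlogged seedlings of each variety were flooded for 96 h in the dark and sampled at once, at 0 h, and control seedlings spent the same 96 h in the dark without flooding. The 24 h groups were sampled after a further 24 h in the light, waterlogged seedlings having been drained and control seedlings only re-lit. All groups therefore share the 96 h of darkness, and every 24 h control had been re-lit, so that re-lighting and elapsed time cannot be told apart in the controls. Nothing states that the 3 libraries per group were grown from separate plants. The p-values below thus rest on library-to-library spread alone, and that spread may be technical.

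Waterlogging fills the air spaces of soil with water and limits the supply of oxygen to roots. Plant roots that lack oxygen produce less energy by respiration, turn to fermentation, and restrict costly processes such as growth and protein synthesis, and transcripts for these processes are commonly reduced. Drainage returns oxygen to the root, and many of the transcript changes are then reversed while the tissue also faces reoxygenation stress. Upland cotton carries an A and a D subgenome, and many of its genes exist as an A copy and a D copy. The deposited tables pair no gene ID with a name or a function, so the 83 genes are given here by ID, pathway membership was not tested, and the root label was not tested against marker genes. Reads from near-identical A and D copies may have been divided between them, which makes the count of a single copy uncertain. In whole roots, fewer cells of a type and less RNA per cell cannot be told apart.

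Library totals ran from 21423479 to 39945111 counts. The 3 libraries of waterlogged 4847 roots at 24 h were the shallowest, with no library above 22442564 counts, and every other library had at least 36096441. The same group had the largest spread between its libraries, with a biological coefficient of variation of 14.4%, against 5.82% in the 24 h controls of 4847. In 9001 this value was 6.60% in waterlogged roots and 6.21% in control roots at 24 h. At 0 h it was 11.4% in waterlogged and 7.23% in control roots of 9001.

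The first condition was met by 2651 genes in 9001 and 1878 genes in 4847, and by 1708 genes in both. Of these, 937 also reached 5 CPM in waterlogged roots at 24 h in both varieties. Among the 937 genes, 83 lay within 0.5 of the 24 h control in both varieties, 277 in 9001 with or without 4847, 169 in 4847 with or without 9001, and 574 in neither. Of the 574 genes, 472 were at least 0.5 below the control in both varieties, and 77 were at least 0.5 above it in both. The 854 genes outside the group of 83 serve below as comparison genes, since they met the same conditions on the fall and on the level and differed only in the 24 h ratio. The genes nearest to the limits were close together. Ghir_A12G012060, with a higher 0 h ratio of -3.001, was included, and Ghir_A07G011200, with -2.96, was not. Ghir_D07G003460 was included with a larger absolute 24 h ratio of 0.4997, while Ghir_A05G020350 was excluded with 0.501. The lowest waterlogged 24 h level inside was 5.34 CPM, in Ghir_D06G004030, and the nearest one outside was 4.74 CPM, in Ghir_D04G015510.

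At 0 h the 83 genes had a median of 2.56 CPM in waterlogged roots and 44.9 CPM in control roots of 9001. In 4847 the medians were 3.52 CPM in waterlogged roots and 46.6 CPM in control roots. The median log2 ratio of waterlogged over control roots was -3.74 in 9001, with a range from -5.95 to -3.01, and -3.58 in 4847, with a range from -5.52 to -3.001. Waterlogged roots thus held a median of 5.39% of the control level in 9001 and 6.66% in 4847. All 83 genes were also called lower by edgeR in both varieties. Of the 50638 tested genes, 40.7% were called lower and 36.1% higher in 9001, and 38.5% lower and 36.4% higher in 4847. The selection used this contrast, and nothing is read from the count. As a description of the values that chose the genes, the 0 h ratio was lower in 9001 than in 4847 for 62 of the 83, with a median difference of -0.26. The median ratio of all tested genes was also lower in 9001, at -0.57, than in 4847, at -0.41.

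**Figure D1:**
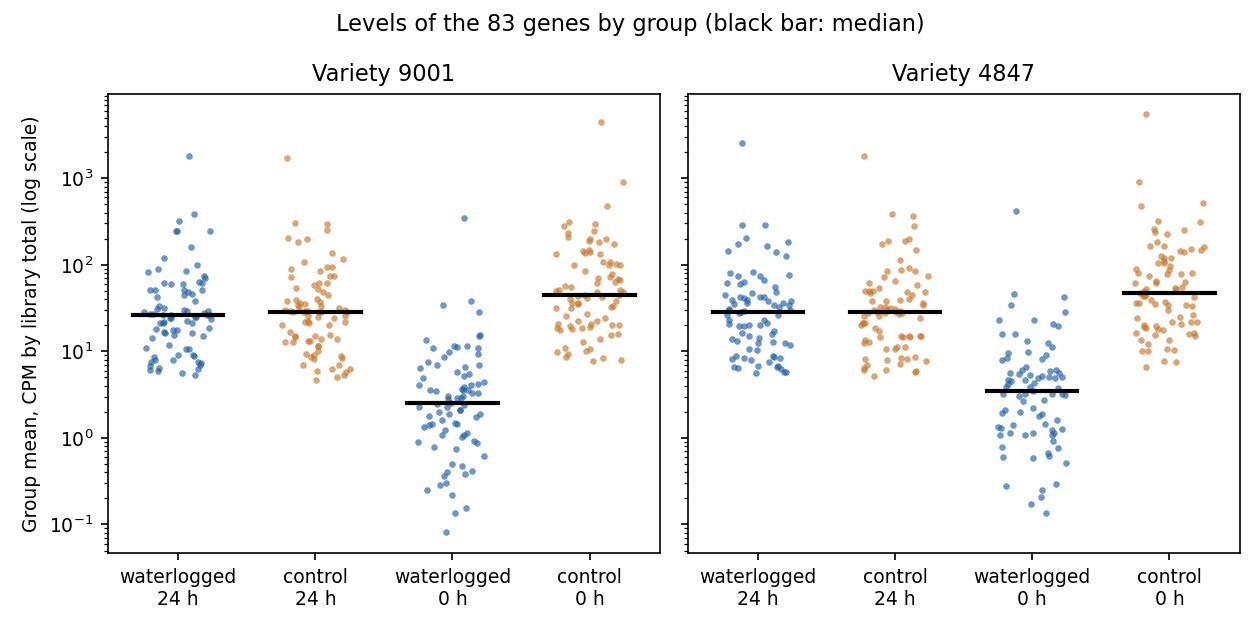
Group mean level of each of the 83 genes in CPM by library total (log axis), for 9001 (left) and 4847 (right); each point is 1 gene, the black bar is the median of the 83 genes, and points are spread sideways only for legibility. In 9001 the medians were 2.56 CPM in waterlogged roots at 0 h and 44.9 CPM in control roots at 0 h, and they lay at 26.0 CPM in waterlogged roots and 28.3 CPM in control roots at 24 h.

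At 24 h the 83 genes had a median of 26.0 CPM in waterlogged roots and 28.3 CPM in control roots of 9001, and 28.6 CPM in waterlogged roots and 28.3 CPM in control roots of 4847. The median log2 ratio was -0.05 in 9001 and -0.11 in 4847, with 37 and 31 genes above 0. The sign was the same in both varieties for 42 genes and opposite for 41. The log2 ratio of 24 h over 0 h in waterlogged roots had a median of 3.08 in 9001 and 2.88 in 4847. It was at least 1 for 82 genes in 9001 and for 80 genes in 4847. These contrasts fed the selection, and edgeR called 80 genes higher in waterlogged 9001 roots at 24 h than at 0 h and 1 lower (43.7% and 35.8% of all tested genes) and 82 higher and 0 lower in waterlogged 4847 roots (38.3% and 34.2%).

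Control roots changed over the same 24 h. Relative to the 0 h control, waterlogged roots at 24 h stood at a median of 55.0% in 9001, and control roots at 24 h at a median of 57.8%. In 4847 the medians were 58.3% in waterlogged roots and 61.4% in control roots. The level reached at 24 h therefore lay near that of a control that was itself below its 0 h level for most of the genes. Only 16 genes in waterlogged 9001 roots and 7 in waterlogged 4847 roots were above the 0 h control level at 24 h. For the 854 comparison genes, waterlogged roots at 24 h had a median of 56.8% of the 0 h control in 9001 and 43.3% in 4847, while control roots at 24 h had 107% and 105%. In 9001 the waterlogged 24 h medians of the 83 genes and of the comparison genes were thus close, and the 24 h controls of the 2 sets stood apart. The 24 h ratio, which separates the sets, holds the 24 h control in its denominator.

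**Figure D2:**
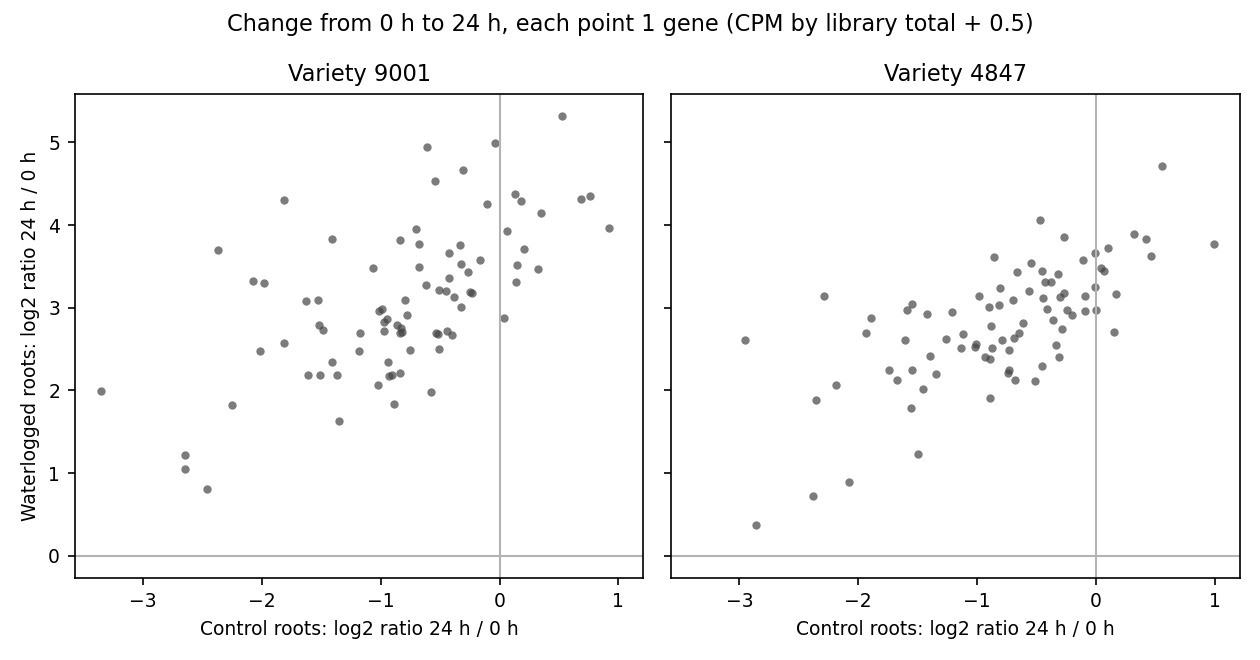
Log2 ratio of 24 h over 0 h (CPM + 0.5) in waterlogged roots (vertical) against control roots (horizontal) for 9001 (left) and 4847 (right); each point is 1 of the 83 genes. All points lie above 0 on the vertical axis, with medians of 3.08 in 9001 and 2.88 in 4847, and most lie left of 0 on the horizontal axis, with medians of -0.78 in 9001 and -0.70 in 4847.

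The change in control roots was tested with edgeR's quasi-likelihood test on all genes, with TMM scaling, which estimates a scaling factor per library from genes of moderate change. In 9001, 77 of the 83 genes were lower in control roots at 24 h than at 0 h and 2 were higher, whereas 35.0% of all tested genes were called lower and 38.5% higher. In 4847, 77 were lower and 1 was higher, against 35.9% and 39.9% of all tested genes. The median log2 fold change of the 83 genes was -1.27 in 9001 and -1.19 in 4847, and that of all tested genes was 0.08 and 0.09. A fall of at least 2-fold was called for 53 genes in 9001 and 50 in 4847, beside 16.8% and 18.2% of all tested genes. In both varieties together, 76 of the 83 genes fell, against 31.8% of all tested genes. Among the 854 comparison genes, 485 fell in 9001 and 478 in 4847, with medians of -0.38 and -0.42. These libraries also entered the selection, which asks for high 0 h controls and ties the 24 h control to the waterlogged level, so the excess over the background is not independent evidence. With library totals as the only scaling, 66 genes were called lower and 6 higher in 9001, beside 21.8% and 54.1% of all tested genes. In 4847, 65 were lower and 5 higher, beside 23.1% and 54.3%. On that scaling the median of all tested genes was 0.56 in 9001 and 0.58 in 4847, and that of the 83 genes was -0.79 and -0.70.

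Ranked by the shallower of its ratios in the 2 varieties, the gene with the deepest fall at 0 h was Ghir_D04G008120, on chromosome D04. At 0 h it had 2.15, 2.48 and 2.14 CPM in waterlogged 9001 roots, against 134, 129 and 137 CPM in control 9001 roots. Waterlogged 4847 roots had 3.30, 2.28 and 2.57 CPM, and control 4847 roots had 145, 145 and 150.3 CPM. No waterlogged library came near a control library in either variety. At 24 h the gene had 27.4, 27.7 and 25.8 CPM in waterlogged 9001 roots and 30.7, 31.0 and 32.2 CPM in control 9001 roots. In 4847 it had 24.5, 30.2 and 29.1 CPM in waterlogged roots and 30.5, 30.2 and 28.1 CPM in control roots, and these groups overlapped. The control level at 24 h was 23.4% of the 0 h control in 9001 and 20.2% in 4847. By library totals, with 0.5 CPM added, the log2 ratio of 24 h over 0 h controls was -2.08 in 9001 and -2.29 in 4847. The edgeR fit, with TMM scaling, gave a larger control change of -2.57 (SE 0.0645, edgeR adjusted p = 1.86e-33) in 9001 and -2.80 (SE 0.0650, adjusted p = 8.63e-35) in 4847.

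Ghir_A08G018790, on chromosome A08, came next in this ranking and had the deepest fall in control roots. It had 5.59, 4.77 and 4.52 CPM in waterlogged 9001 roots at 0 h and 301, 299.7 and 291 CPM in the controls. In 4847 it had 5.82, 5.24 and 6.67 CPM in waterlogged roots and 257, 251 and 257 CPM in the controls. Both varieties thus had 0 h controls far above every other group. At 24 h, 9001 had 19.7, 22.6 and 21.5 CPM in waterlogged roots and 27.3, 27.5 and 30.8 CPM in control roots, with the waterlogged libraries below the controls. At 24 h, 4847 had 36.1, 39.4 and 40.02 CPM in waterlogged roots and 32.1, 32.7 and 32.4 CPM in control roots, with the waterlogged libraries above the controls. The control change was -3.86 (SE 0.0607, edgeR adjusted p = 2.63e-41) in 9001 and -3.46 (SE 0.0596, adjusted p = 7.74e-40) in 4847. The difference between the varieties in the edgeR change was -0.40 (SE 0.0799, edgeR adjusted p = 0.000305).

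The other gene named for its fall in control roots was Ghir_A11G019970, on chromosome A11. Control 9001 roots had 6.61, 6.31 and 6.08 CPM at 24 h and 41.7, 43.2 and 41.7 CPM at 0 h. Control 4847 roots had 6.36, 5.24 and 5.72 CPM at 24 h and 44.3, 44.9 and 45.8 CPM at 0 h. The 24 h controls of both varieties lay far below the 0 h controls. The edgeR change with TMM scaling was -3.21 (SE 0.112, edgeR adjusted p = 6.05e-28) in 9001 and -3.45 (SE 0.114, adjusted p = 5.65e-29) in 4847. The gene was picked for this fall, so these p-values are a description. In waterlogged roots the gene had 7.77, 6.71 and 7.93 CPM at 24 h and 3.31, 2.97 and 2.46 CPM at 0 h in 9001. Waterlogged 4847 roots had 7.52, 4.99 and 7.24 CPM at 24 h and 4.52, 4.21 and 6.23 CPM at 0 h, and these libraries overlapped. This was the smallest difference between 24 h and 0 h in waterlogged 4847 roots among the 83 genes, with a log2 ratio of 0.37. For Ghir_A11G019970, the 24 h ratio near 0 therefore went with a control that had fallen to 12.8% of its 0 h level in 4847, while the waterlogged level moved little.

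Ghir_A04G002360, on chromosome A04, was the only gene of the 83 called higher in control roots at 24 h than at 0 h in both varieties with TMM scaling. Control 9001 roots had 262, 253 and 248 CPM at 24 h and 132, 128 and 143 CPM at 0 h. Control 4847 roots had 355, 372 and 379 CPM at 24 h and 184, 183 and 189 CPM at 0 h. The 24 h controls thus lay above the 0 h controls without overlap. By library totals they stood at 190% of the 0 h control in 9001 and 199% in 4847. The edgeR log2 fold change, with TMM scaling, was smaller than these levels give. It was 0.45 (SE 0.0517, edgeR adjusted p = 2.48e-10) in 9001 and 0.51 (SE 0.0512, adjusted p = 5.18e-12) in 4847. Waterlogged 9001 roots had 218, 252 and 263 CPM at 24 h and 15.5, 14.8 and 15.4 CPM at 0 h. Waterlogged 4847 roots had 285, 296 and 279 CPM at 24 h and 23.0, 18.1 and 20.4 CPM at 0 h. At 24 h every waterlogged library of this gene was above every 0 h control of its variety.

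**Figure D3:**
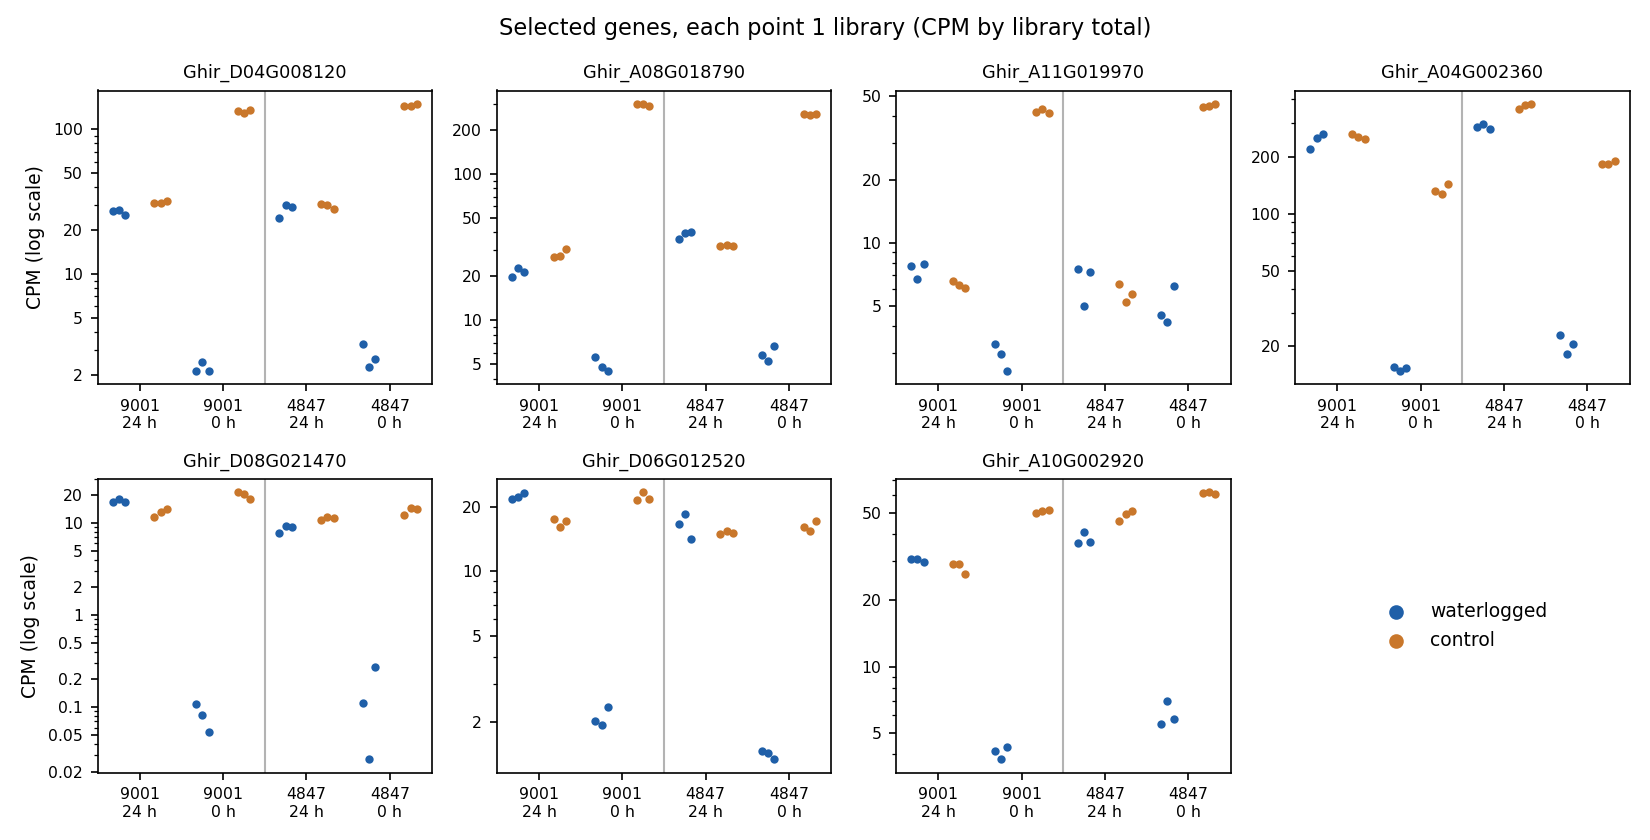
Level in CPM by library total (log axis) of the 7 IDs named by rank, in every library; blue points are waterlogged libraries, orange points control libraries, and the grey line parts 9001 (left) from 4847 (right). The 0 h control points of Ghir_A08G018790 lie far above its 24 h control points, whereas those of Ghir_A04G002360 lie below them.

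A difference between the varieties in the control change was called for 19 of the 83 genes. The change was higher in 9001 for 9 genes and lower for 10, beside 6.58% and 4.97% of all tested genes and 17.4% and 14.2% of the comparison genes. The median difference over the 83 genes was -0.004. The control libraries of this contrast entered the selection through its ratios, so the counts are a description. Leaving out replicate 1 of the 24 h controls of 4847, or replicate 2 of the 0 h controls of 9001, left 6 lower genes in place of 10. Ghir_D02G002880, chosen after its values were seen, was the only gene called in opposite directions. In 9001 it had 99.8, 92.8 and 87.4 CPM in control roots at 24 h and 56.2, 50.2 and 58.4 CPM at 0 h. In 4847 it had 52.9, 54.3 and 56.1 CPM in control roots at 24 h and 56.3, 55.8 and 52.5 CPM at 0 h, and these overlapped. The fitted change with TMM scaling was 0.29 in 9001 (edgeR adjusted p = 0.000942) and -0.50 in 4847 (adjusted p = 2.73e-07). The difference between them was 0.79 (SE 0.110, edgeR adjusted p = 4.67e-07). Scaled by library totals alone, Ghir_D02G002880 in 4847 had a fitted change of -0.01 and was not called.

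In the waterlogged roots at 0 h, 28 of the 83 genes were lower and 8 higher in 9001 than in 4847, where 15.4% of all tested genes were called lower and 15.6% higher. The 0 h ratio of the selection uses these libraries, so the count is a description. The median log2 fold change was -0.17 for the 83 genes and 0.00 for all tested genes. Of the 28 lower genes, 21 were not called between the 0 h controls, 6 were lower there and 1 was higher. This split was not counted over all tested genes, and the calls between 0 h controls moved with the fit, as given below. Nothing is read from it. The 854 comparison genes gave a like picture, with 34.4% called lower, 12.1% higher and a median of -0.18. With library totals alone, 41 of the 83 genes were lower and 4 higher, beside 26.4% and 10.6% of all tested genes. Without replicate 2 of waterlogged 9001 roots at 0 h, 5 genes were higher in place of 8, beside 14.4% of all tested genes.

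Between the control roots at 0 h, 13 genes were lower and 7 higher in 9001, beside 7.34% and 7.47% of all tested genes. Between the control roots at 24 h, 13 were lower and 6 higher, beside 9.08% and 9.95% of all tested genes. Median log2 fold changes were -0.06 at 0 h and -0.03 at 24 h. Control libraries also entered the selection through its ratios, so the counts between controls are a description too. Of the comparison genes, 22.4% were called lower and 25.1% higher in the 24 h controls, and the difference in share from the 83 genes was not tested. When only the libraries compared were fitted, 26 of the 83 genes were lower and 14 higher in 9001 at 0 h, beside 9.8% and 9.57% of all tested genes.

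In waterlogged roots at 24 h, 56 of the 83 genes were lower in 9001 than in 4847 and 3 were higher, where 29.4% of all tested genes were called lower and 33.2% higher. The median was -0.47 for the 83 genes and 0.11 for all tested genes. These libraries entered the selection, which tied the waterlogged level at 24 h to the 24 h control of the same variety by library totals, so the count is a description. The split depended on the scaling. Mean TMM factors were 1.22 in waterlogged 9001 roots and 0.897 in waterlogged 4847 roots at 24 h. With library totals alone, 27 genes were lower and 28 higher, with a median of -0.02 for the 83 genes and 0.55 for all tested genes, and 15.5% and 52.7% of all tested genes were called lower and higher. The shallow group of waterlogged 4847 roots at 24 h enters this comparison, and the part of its depth in the result was not tested.

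**Figure D4:**
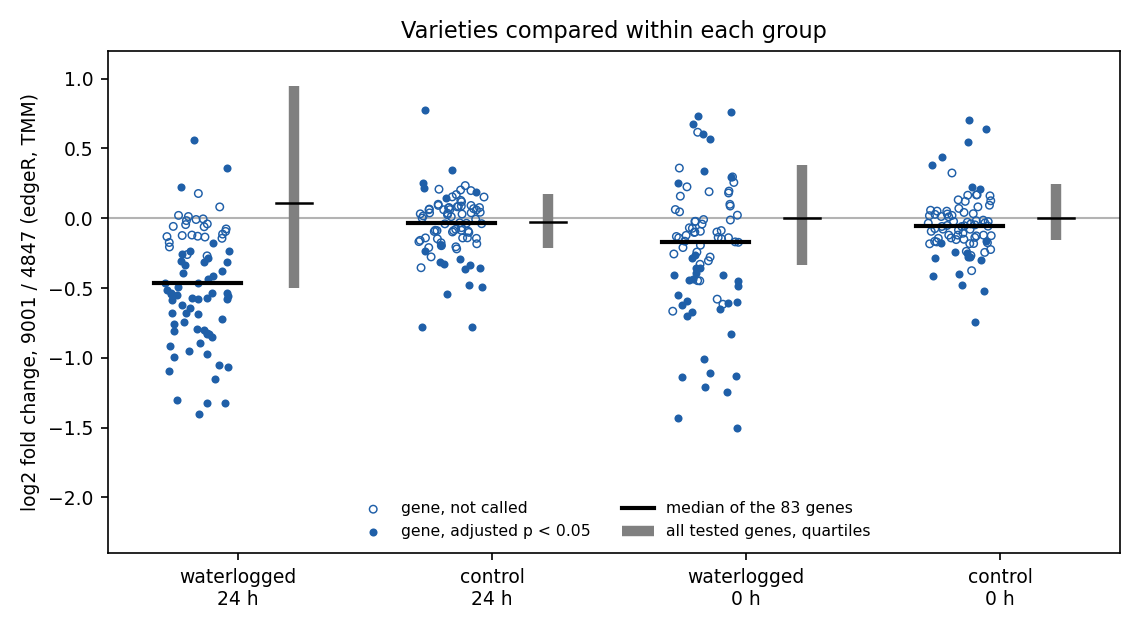
Log2 fold change of 9001 over 4847 (edgeR, TMM scaling) for the 83 genes within each group; filled points are genes with adjusted p under 0.05, open points are genes not called, the long bar is the median of the 83 genes, and the grey column with a short bar shows the quartiles and median of all tested genes. In waterlogged roots at 24 h the median of the 83 genes was -0.47, and in control roots at 24 h it was -0.03.

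Over the 4 groups, 2 of the 83 genes were called lower in 9001 in all 4, 7 were called lower in 3 with none higher, and 13 were called in none. The like shares of all tested genes were not counted, so nothing is read from these counts. They also include the waterlogged 24 h comparison, which depended on the scaling. Ghir_A10G002920, on chromosome A10, was lower in 9001 in all 4 groups. It had 4.15, 3.79 and 4.30 CPM in waterlogged 9001 roots at 0 h, against 5.49, 6.95 and 5.77 CPM in waterlogged 4847 roots. The 0 h controls had 49.7, 50.7 and 51.2 CPM in 9001 and 61.7, 61.8 and 60.8 CPM in 4847. No library of 9001 overlapped with one of 4847 in either group. At 24 h waterlogged roots had 30.9, 30.9 and 29.8 CPM in 9001 and 36.3, 40.8 and 36.7 CPM in 4847. The 24 h controls had 29.2, 29.4 and 26.3 CPM in 9001 and 45.6, 49.1 and 50.7 CPM in 4847. Again the libraries of 9001 were all lower than those of 4847. The log2 fold changes were -0.41 and -0.30 at 0 h (edgeR adjusted p = 0.00128 in waterlogged and 0.000687 in control roots). At 24 h they were -0.76 and -0.78 (adjusted p = 8.04e-13 in waterlogged and 4.59e-13 in control roots). Fold changes between waterlogged roots at 24 h rest on mean TMM factors of 1.22 in 9001 and 0.897 in 4847. The waterlogged value of -0.76 is therefore larger in size than the listed CPM by library total give. The other gene lower in all 4 groups was Ghir_A04G002360, with -0.26 and -0.48 in waterlogged and control roots at 0 h and -0.68 and -0.54 in waterlogged and control roots at 24 h (largest edgeR adjusted p = 0.0018).

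No gene of the 83 was called higher in 9001 in all 4 groups, and 3 were called higher in 2 groups with none lower. For these counts too, the shares of all tested genes were not counted, and nothing is read from them. Ghir_D08G021470, on chromosome D08, had 21.5, 20.5 and 18.1 CPM in 0 h controls of 9001 and 12.3, 14.4 and 14.1 CPM in those of 4847. Waterlogged roots at 24 h had 17.1, 18.3 and 16.9 CPM in 9001 and 7.80, 9.22 and 9.08 CPM in 4847. The libraries of 9001 were all higher than those of 4847 in both groups. The log2 fold changes were 0.54 in the 0 h controls (SE 0.113, edgeR adjusted p = 0.000369) and 0.56 in waterlogged roots at 24 h (SE 0.124, adjusted p = 0.000139). The value of 0.56 rests on mean TMM factors of 1.22 in 9001 and 0.897 in 4847. It is smaller than the listed CPM by library total give. In waterlogged roots at 0 h this gene had the lowest counts of the 83, with 9 counts over the 3 libraries of 9001 and 15 over those of 4847. At that depth no difference was called (log2 fold change -0.58, adjusted p = 0.524), and it was 0.40 without replicate 3 of waterlogged 4847 roots at 0 h. Ghir_D06G012520, on chromosome D06, had 2.01, 1.94 and 2.35 CPM in waterlogged 9001 roots at 0 h and 1.47, 1.44 and 1.34 CPM in waterlogged 4847 roots. The 0 h controls had 21.4, 23.3 and 21.8 CPM in 9001 and 16.0, 15.4 and 17.1 CPM in 4847. Here too the libraries of 9001 lay above those of 4847. Its log2 fold changes were 0.73 in waterlogged roots (SE 0.158, adjusted p = 0.000255) and 0.44 in control roots (SE 0.0893, adjusted p = 0.000263).

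Together the 83 genes made up 0.0745% ± 0.0018 of the counts in waterlogged 9001 roots at 0 h and 1.18% ± 0.0271 in the controls (SD, n = 3 each). In 4847 they made up 0.0941% ± 0.0015 in waterlogged roots and 1.31% ± 0.0112 in control roots (SD, n = 3 each). At 24 h the shares were 0.570% ± 0.0073 in waterlogged and 0.564% ± 0.0038 in control roots of 9001, and 0.630% ± 0.0017 in waterlogged and 0.601% ± 0.0039 in control roots of 4847 (SD, n = 3 each). A single gene, Ghir_A03G018700 on chromosome A03, gave between 30.0% and 47.1% of these sums as group means. It was singled out after its values were seen. Per length it was also the most abundant of the 83, with a group mean of at least 143 FPKM, and its mean in the 0 h controls of 4847 was 2231 FPKM beside a median of 26.6 FPKM over the 83 genes. It had 2538, 2512 and 2542 CPM in waterlogged 4847 roots at 24 h and 1822, 1796 and 1779 CPM in the controls. Without this gene the shares at 24 h in 4847 were 0.377% ± 0.0032 in waterlogged and 0.421% ± 0.0017 in control roots (SD, n = 3 each), so that the order of the groups turned. In 9001 they were 0.392% ± 0.0034 in waterlogged and 0.394% ± 0.0015 in control roots (SD, n = 3 each).

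The closeness of the 83 genes to the 24 h control held for the scaling by library totals, and other scalings moved it. Group means of the TMM factors ran from 0.584 in waterlogged 9001 roots at 0 h to 1.47 in the 24 h controls. With TMM scaling the median 24 h ratio of the 83 genes was 0.21 in 9001 and 0.60 in 4847, and that of all tested genes was 0.01 and -0.07. All 83 genes were then above the 24 h control in 4847, 9 of them at least 2-fold, and 32 remained within 0.5 of it. In 9001, 57 genes were above the 24 h control and 68 within 0.5 of it. The 24 h ratio chose the genes, and a change of scaling shifts the 83 genes and all tested genes nearly alike, so nothing is read from the gap between their medians. The same selection on TMM-scaled values kept 69 genes, of which 13 were among the 83. That selection also applies the limit of -3 at 0 h. With TMM scaling the median 0 h ratio of the 83 genes was -3.11 in 9001 and -2.99 in 4847, close to that limit.

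**Figure D5:**
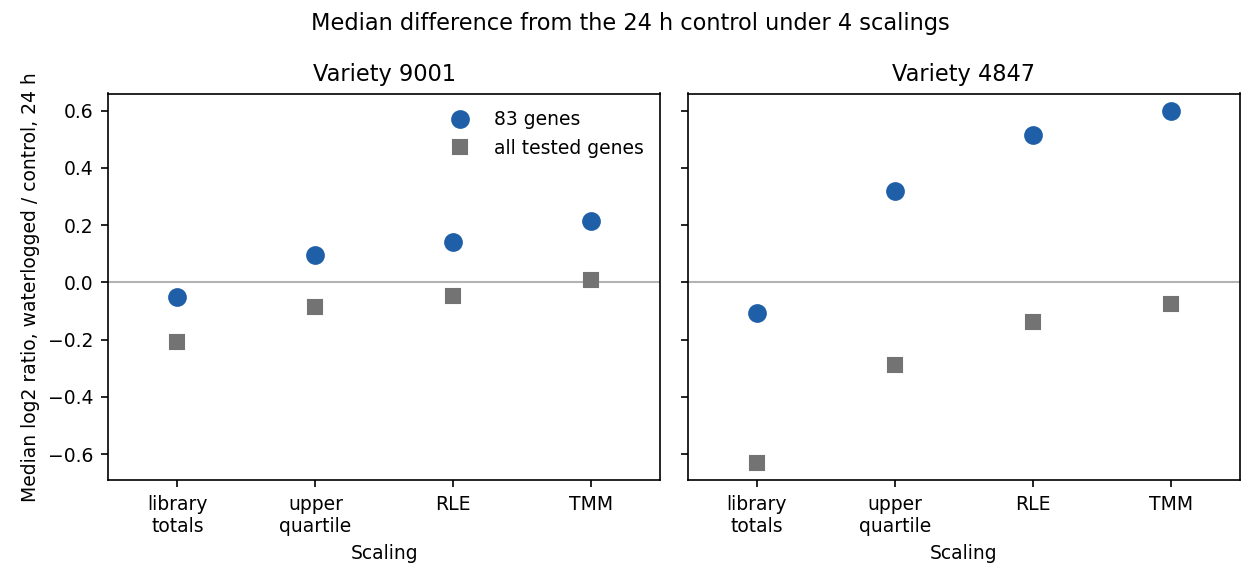
Median log2 ratio of waterlogged over control roots at 24 h under 4 scalings, for 9001 (left) and 4847 (right); blue circles are the 83 genes and grey squares all tested genes. The blue circle for 4847 lies at -0.11 with library totals and at 0.60 with TMM. The gap between circle and square follows from the selection on this ratio.

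The 83 genes were spread over 25 of the 26 chromosomes, with none on A09. Chromosome D08 carried 9 of them, D11 carried 7 and D07 carried 6, or 0.431%, 0.257% and 0.325% of the tested genes there. As a share of tested genes, D06 with 0.293% and D03 with 0.288% stood above D11. The D subgenome held 53 genes and the A subgenome 30, so that 63.9% were on D chromosomes, against 52.1% of the comparison genes and 50.8% of all tested genes. This share moved with the selection and was 52.9% among the 280 genes kept with a limit of 1 on the 24 h ratio, and 58.0% among the 69 genes kept on TMM-scaled values. It was 70.8% among the 24 genes kept with a limit of 0.25 on the 24 h ratio, and 76.2% among the 21 genes kept with a limit of -4 on the 0 h ratio. No pair of the 83 genes occupied neighbouring IDs in the table. The closest were Ghir_D05G020210 and Ghir_D05G020260, which were 4 lines apart. The gene lengths implied by counts and FPKM ran from 513 to 6192 bases with a median of 2084 bases, beside 2186 bases for the comparison genes and 1898 bases for all tested genes.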

How the data were processed

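RNA was sequenced from roots of 24 samples, grouped by the sample labels. The authors deposited whole-number counts per gene ID without normalization, and FPKM values for the same IDs. For 60632 IDs each FPKM above 0 followed from the deposited count, the library total and a fixed length (relative tolerance 1e-06). No source used here names the aligner, the counting tool or the use of strand. The submitters' processing notes give mm10, a mouse assembly, as build, whereas the IDs carry A and D chromosome labels; which assembly was counted against stays unknown.

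The 83 genes and all gene lists were chosen with earlier results of these data known. Lists and root markers defined by gene descriptions could not be applied to bare IDs. The selection used CPM by library total. All tests used edgeR 4.0.16 (filterByExpr, TMM, estimateDisp, glmQLFit, glmQLFTest) in R 4.3.3 on the deposited counts, in 1 fit of all 24 libraries with 16 residual degrees of freedom. After filtering, 50638 genes were tested, the 83 included, with Benjamini-Hochberg adjustment over all of them in each contrast and a threshold of 0.05. An SE is the size of the log2 fold change divided by the square root of its F statistic. Each gene has 1 spread estimate for all groups, which can make p-values too small where a group is more variable. The code was tested on simulated data. Named are the 2 IDs with the deepest fall at 0 h, the 2 with the largest fall and the 1 with a rise called in both varieties in the control change, and the 2 highest and 2 lowest between varieties, all without overlap between the libraries ranked. Because fewer than 2 IDs were higher in 9001 in all 4 groups, IDs called higher in at least 2 groups and lower in none were used there. In the contrasts ranked, the size, the lack of overlap and the p-values of the named IDs are a description. Alternatives were other scalings (RLE, upper quartile, library totals), no filter, a fit of the compared libraries alone, DESeq2 1.42.0, limma 3.58.1 on log2(FPKM + 1) and log2(FPKM + 0.1), other limits, a replicate block and each library left out.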

Additional observations from a re-analysis of the deposited data

Results flagged for a closer look

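The change in control roots between 24 h and 0 h differed between the varieties for some of the 83 genes, by the test of the difference itself (edgeR, adjusted p under 0.05). In 9001 the change was higher than in 4847 for 9 of the 83 genes, and for 10 it was lower, beside 6.58% and 4.97% of all tested genes. The control libraries also entered the selection through its ratios, so these counts are a description and not independent evidence. Among the genes named here, the difference was -0.40 for Ghir_A08G018790, -0.49 for Ghir_A10G002920, 0.79 for Ghir_D02G002880 and 0.20 for Ghir_A03G018700. For Ghir_A08G018790, Ghir_A10G002920 and Ghir_D02G002880 the difference was called under every alternative that was run.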

How the results depend on the processing

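Leaving out 1 library at a time kept 79 to 85 genes in the selection. Limits of 0.25 and 1 on the 24 h ratio kept 24 and 280, and limits of -2 and -4 on the 0 h ratio kept 346 and 21. The median 0 h ratio in 9001 was -3.11 with TMM, -3.003 with RLE, -3.20 with upper quartile, and -4.12 and -3.55 with 0.1 and 1 CPM added (-3.80 to -3.72 with a library left out). In 4847 it was -2.99, -2.90, -3.06, -3.82 and -3.29 in the same order (-3.58 to -3.52). The median 24 h ratio turned positive with TMM, RLE and upper quartile, at 0.215, 0.14 and 0.094 in 9001 (-0.073 to -0.044 with a library left out) and 0.60, 0.51 and 0.32 in 4847 (-0.11 to -0.09). The cause was not tested.

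Genes called higher in the control change numbered 4 with RLE, upper quartile and DESeq2 and 6 with library totals and both limma fits in 9001. Of all tested genes, 42.7%, 44.9% and 43.3% were called higher with RLE, upper quartile and DESeq2. The shares were 54.1% with library totals, 54.7% with limma (1 FPKM added) and 53.2% with limma (0.1 FPKM added). In 4847 they numbered 2 with RLE, DESeq2 and the compared libraries alone, 3 with upper quartile and limma (0.1 FPKM added), and 5 with library totals and limma (1 FPKM added). There 43.7%, 44.3% and 42.7% of all tested genes were called higher with RLE, DESeq2 and the compared libraries alone. The shares were 45.8% with upper quartile, 53.3% with limma (0.1), 54.3% with library totals and 54.6% with limma (1). Its difference between varieties had 15 higher genes with the compared libraries alone and 5 lower with limma (0.1), and 6 to 9 lower with a library left out. Genes higher in waterlogged 9001 than 4847 roots at 0 h numbered 4 with library totals and both limma fits, 5 with the compared libraries alone and 5 to 8 with a library left out. Of all tested genes, 10.6% were called higher with library totals, 9.98% with limma (1) and 10.0% with limma (0.1). The shares were 13.9% with the compared libraries alone and 14.0% to 14.5% with a library left out. Between 0 h controls, 14 were higher and 26 lower with the compared libraries alone, beside 9.57% and 9.80% of all tested genes. With limma (0.1) they were 4 and 8, beside 6.25% and 5.63%. Between waterlogged roots at 24 h, 9 were higher with upper quartile, beside 40.5% of all tested genes. With library totals 28 were higher and 27 lower, beside 52.7% and 15.5%. The counts were 28 and 28 with limma (1), beside 53.8% and 15.9%, and 19 and 23 with limma (0.1), beside 54.1% and 15.2%. Between 24 h controls, 13 were higher with the compared libraries alone, near the 15.2% of all tested genes.

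Over the 7 IDs named by rank, 367 alternatives kept the call and direction, 1 gained a call and 12 reversed. Ghir_D02G002880 is outside this tally, and its control change in 4847 lost its call with library totals and both limma fits. Ghir_D08G021470 in waterlogged roots at 0 h, with few counts, was -1.06 to 0.40 with a library left out, the positive value without replicate 3 of waterlogged 4847. Ghir_D06G012520 in waterlogged roots at 24 h, at -0.00, gave 0.013 with RLE and DESeq2, 0.0057 with the compared libraries alone, 0.17 with upper quartile, 0.44 with library totals and limma (0.1), 0.39 with limma (1), 0.0022 with no filter, and -0.10 to 0.084 with a library left out.

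Equal replicate numbers do not pair the libraries: over 28 pairs of groups, correlations of deviations between same-numbered libraries ran from -0.0528 to 0.0414. With a replicate block, 78 genes were lower in the control change in 9001 and 76 in 4847, and no count moved by over 1.5 times. Leaving out waterlogged 4847 at 24 h as a group, chosen after seeing the data, also moved no count by over 1.5 times. Genes with 9 to 15 counts over a group limit what can be detected at 0 h.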
